A study of Mus musculus with 12 samples.

Results

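Mito-piRNAs of mouse germ cells were followed from embryonic day E11.5 to E13.5. The members are the 6 primordial germ cell (PGC) libraries of the 12 libraries in the series, chosen by their labelled cell type, and the other 6 come from gonadal somatic cells (SCs). The germ cell libraries listed 157 of the 204 mito-piRNA sequences of the series and 187614 of its 403352 reads, or 46.5%. Each of the 3 days had 1 female and 1 male library, named PGC11F, PGC11M, PGC12F, PGC12M, PGC13F and PGC13M, and no library of a given sex and day was repeated. Days were therefore compared over 2 libraries each, with sex as a term in the edgeR and DESeq2 models. In SDs and permutation tests, which have no sex term, the spread within a day holds the sex difference as well as any technical spread.

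The embryos were untreated mice of the CD1 strain. PGCs had been separated from the gonads, freed of the mesonephros, with magnetic beads that carry an antibody against CD15, and the gonads of the offspring of several pregnant females had been pooled for each library. Small RNA was sequenced after size selection. Each list holds only small RNAs that matched both a database of PIWI-bound sequences and the mitochondrial DNA (mtDNA), so germ cell and somatic marker genes are not in it and the labelled cell type was not checked against markers. Fewer cells and less RNA per cell cannot be told apart in these pooled libraries.

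piRNAs are small RNAs bound by PIWI proteins, and in the germ line they are best known for silencing transposons. The mtDNA is transcribed from both strands as long precursors, from which the tRNAs are cut out, and the cuts also free the ends of the rRNAs that the tRNAs flank. PGCs of these days have reached the gonad, and germ cells of the 2 sexes begin to differ: female cells turn towards meiosis and male cells towards arrest in the cell cycle.

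The following sequences were frequent at the main 5′ ends, and are shown because the comparison between days rests on how reads of 1 5′ end are counted. The capital marks the last base, except in the 12S rRNA sequence from base 909 of the gene, where it marks the base that differs from the mtDNA. For the 16S rRNA, tRNA-SerGCT and 12S rRNA starts, the form with most reads in the other 5 libraries is followed by the form with most reads in PGC13F. The D-loop form shown is likewise the one with most reads in the other 5, and PGC13F did not list it. The 29-nt and 34-nt forms of the 16S rRNA start are among the 5 sequences with most germ cell reads.
16S rRNA base 1, 23 nt: actaatcctagccctagccctaC
16S rRNA base 1, 24 nt: actaatcctagccctagccctacA
16S rRNA base 1, 34 nt: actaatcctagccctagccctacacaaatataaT
16S rRNA base 1, 29 nt: actaatcctagccctagccctacacaaaT
tRNA-SerGCT base 1, 22 nt: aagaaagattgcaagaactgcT
tRNA-SerGCT base 1, 17 nt: aagaaagattgcaagaA
12S rRNA base 1, 18 nt: aaaggtttggtcctggcC
12S rRNA base 1, 16 nt: aaaggtttggtcctgG
12S rRNA base 909, 16 nt: aAaagtcgtaacaagg
16S rRNA base 1552, 31 nt: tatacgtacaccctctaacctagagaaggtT
tRNA-SerTGA base 1, 18 nt: gagaaagacatataggaT
D-loop reverse, 26 nt: gaattgatcaggacatagggtttgaT

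Positions are on the GRCm39 mtDNA of 16299 bases. The 16S rRNA gene (mt-Rnr2) spans bases 1094 to 2675 and the 12S rRNA gene (mt-Rnr1) spans bases 70 to 1024. The gene of tRNA-SerGCT (mt-Ts2), the serine tRNA that lacks a D arm, spans bases 11613 to 11671, and reads of all of these are on the + strand. The gene of the other serine tRNA, tRNA-SerTGA (mt-Ts1), spans bases 6870 to 6938 on the - strand. The D-loop is the control region that holds the promoters and the origin of heavy-strand replication, and its reverse sequences began at base 16188 and ran along the - strand.

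Of the 157 sequences, 140 matched the mtDNA exactly and 17 with 1 mismatch. A match to the nuclear genome with at most 1 mismatch was found for 92 of them (NUMT) and for the remaining 65 there was none (MT). The sequence from base 909 of the 12S rRNA carries the substitution T2A, with the mtDNA base named before the read's and positions counted from the 5′ end, and it matched exactly bases 1802 to 1817 of the transcript of Rn18s-rs5, an annotated nuclear 18S rRNA gene. The 17-nt sequence from the same base matched bases 1802 to 1818 there exactly, again with 1 mismatch to the mtDNA. Both match the nuclear gene better than the mtDNA. They are counted here under the 12S rRNA by their mtDNA position, and their source was not tested. Reads that match both genomes equally well cannot be told apart by source.

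The level of mito-piRNAs did not pass a test between days, and its lowest library was an E12.5 one. Levels are given in rpm, the reads per 1000000 reads of the library total that the study lists. That total covers the reads above a cut-off of 10 CPM, which was applied to a larger total, so the lowest listed sequences held 15.8 to 17.8 rpm and rpm is not on the scale of the cut-off. PGC11F held 4683 rpm and PGC11M 7875 rpm. PGC12F held 2710 rpm and PGC12M 5057 rpm. PGC13F held 7201 rpm and PGC13M 7222 rpm. The E13.5 libraries were close to each other and above both E12.5 libraries, while the E11.5 libraries spanned the E13.5 values. Means were 6279 ± 2257 rpm at E11.5, 3883 ± 1660 rpm at E12.5 and 7211 ± 15.2 rpm at E13.5 (SD, n = 2). On the log2(rpm + 1) scale E12.5 was lower than E11.5 by a difference of -0.71 and E13.5 was higher than E12.5 by 0.96. The exact two-sided permutation test of the 3 days gave p = 0.4, and 0.6 after Benjamini-Hochberg adjustment over 9 such measures. With 2 libraries a day the smallest p this test can give is 0.0667, so none of these measures could reach 0.05. Within each day the male library was the higher one, by a narrow margin at E13.5.

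**Figure D1:**
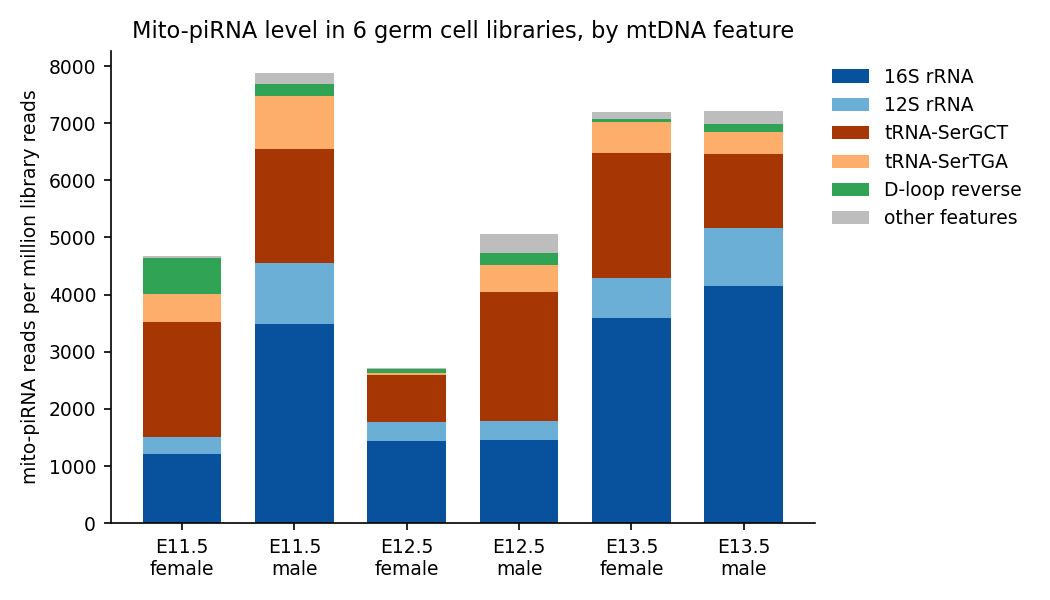
Mito-piRNA level in rpm (vertical axis) in each of the 6 germ cell libraries, stacked by the mtDNA feature that the sequences match. The whole bars run from 2710 rpm in PGC12F to 7875 rpm in PGC11M, and the 16S rRNA is the largest portion in 4 of the 6 libraries, with tRNA-SerGCT the largest in PGC11F and PGC12M.

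A small part of the mtDNA supplied these reads. Sequences came from 13 features, a feature being a gene with its orientation: sense sequences from both rRNA genes, from 5 of 22 tRNA genes and from 2 of 13 protein-coding genes, 3 sets antisense to a gene, and the D-loop. Only 5 features were listed in all 6 libraries. The 16S rRNA gave 43.5% of all germ cell reads, tRNA-SerGCT 31.02%, the 12S rRNA 10.6%, tRNA-SerTGA 8.1% and the reverse strand of the D-loop 4.2%. The 12S rRNA share includes the 5′ end at base 909, with 2.4% of all germ cell reads, which matches Rn18s-rs5 exactly. Counted by where they start, the sequences shared 58 5′ ends, and 11 of those, listed in all 6 libraries, held 89.5% of the reads.

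No 5′ end passed the test between days. Of 45 5′ ends listed in at least 2 libraries, edgeR's quasi-likelihood test called 0 between days, so the share called over all 5′ ends was 0% for the 3 days together and for each pair of days. At an unadjusted p under 0.05 it called 0 as well. DESeq2 also called 0, and at an unadjusted p under 0.05 it counted 0 for the 3 days together, 1 for E12.5 against E11.5, 6 for E13.5 against E12.5 and 1 for E13.5 against E11.5. The lowest adjusted p of edgeR was 0.748 over the 3 days, 0.656 for E12.5 against E11.5, 0.520 for E13.5 against E12.5 and 0.992 for E13.5 against E11.5. Between features edgeR called 0 of 11 and between single sequences 0 of 96, with 0% called in each, 0 at an unadjusted p under 0.05, and the same counts from DESeq2. The model left 2 residual degrees of freedom. A 5′ end missing from a list had no listed sequence above the authors' cut-off there, and whether it had reads is not known. When only the 11 5′ ends listed in every library were fitted, a choice made after seeing the data, the common dispersion fell from 2.32 to 0.301 and the count stayed at 0.

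The start of the 16S rRNA, the large ribosomal RNA of the mitochondrion, was the most abundant 5′ end. Its level was 1003 rpm in PGC11F, 2386 in PGC11M, 1196 in PGC12F, 1178 in PGC12M, 2648 in PGC13F and 2993 in PGC13M. The E12.5 libraries were close to each other and both E13.5 libraries lay above all 4 earlier ones. edgeR's log2 fold change was -0.41 (SE 0.48, adjusted p = 0.693) for E12.5 against E11.5 and 1.23 (SE 0.48, adjusted p = 0.520) for E13.5 against E12.5. The first turned to 0.36 when libraries were scaled to their mito-piRNA reads, to 0.10 with DESeq2 and to 0.21 without PGC11M, and was -0.04 with TMM, so it has no stable direction. The second was 0.23 when libraries were scaled to their mito-piRNA reads, 0.18 with TMM and 0.10 with DESeq2, and as a percent of mito-piRNA reads the days overlapped, with 44.1% and 23.3% at E12.5 and 36.8% and 41.4% at E13.5. In all, 22 sequences of 16 to 35 nt began there. The 29-nt form held 118.8 rpm in PGC11F, 290.2 rpm in PGC11M, 146.5 rpm in PGC12F, 165.5 rpm in PGC12M, 279.9 rpm in PGC13F and 366.2 rpm in PGC13M. It was highest in PGC13M, and PGC13F lay below PGC11M, so the E11.5 and E13.5 libraries overlapped.

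The other end of the 16S rRNA followed a like course in the values. Sequences that begin at bases 1551, 1552, 1553, 1554 and 1564 of the gene end at its last base or 1 base beyond it, where tRNA-LeuTAA begins. At base 1552 the level was 38.6 rpm in PGC11F, 139.9 in PGC11M, 59.2 in PGC12F, 58.9 in PGC12M, 133 in PGC13F and 148.4 in PGC13M. The PGC11M value lay among the E13.5 values and the PGC11F value under the E12.5 values. For these 5 5′ ends the log2 fold change of E13.5 against E12.5 ran from 0.91 to 1.46, none past the test, with standard errors of 0.84 to 1.12. The 0.91 is of base 1564, which turned to -0.10, -0.16 and -0.24 under the other 3 scalings, and the other 4 fell to values of 0.03 to 0.42. Without PGC12F the 5 values ran from 1.20 to 2.40 and without PGC12M from 0.66 to 0.99.

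At the start of the 12S rRNA, the small ribosomal RNA, the level was 179 rpm in PGC11F, 626 in PGC11M, 133 in PGC12F, 140.2 in PGC12M, 471 in PGC13F and 654 in PGC13M. Both E12.5 libraries lay below the other 4. This 5′ end had the lowest p of E13.5 against E12.5, with a log2 fold change of 1.99 (SE 0.66, adjusted p = 0.520), and 0.87 to 0.97 under the other scalings. For E12.5 against E11.5 it was -1.34 (SE 0.66, adjusted p = 0.656), with -0.54 on mito-piRNA reads, -0.95 with TMM, -0.80 with DESeq2, -2.06 without PGC11F and -0.52 without PGC11M. The 5′ end at base 909, the one that matches Rn18s-rs5, had the opposite order. It held 97.1 and 129.6 rpm at E11.5, 188.6 and 186.4 rpm at E12.5, and 139.6 and 72.6 rpm at E13.5, in each case female and then male. Its E12.5 libraries were the highest of the 6, and the log2 fold changes were 0.71 (SE 0.65) and -0.85 (SE 0.66), with adjusted p = 0.656 and 0.520. Under the other scalings the first was 1.09 to 1.44 and the second -2.07 to -1.86. The first was 0.31 without PGC11F and 1.21 without PGC11M, and the second -0.33 without PGC13M and -1.47 without PGC13F.

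tRNA-SerGCT held 2017 rpm in PGC11F, 1992 in PGC11M, 820.3 in PGC12F, 2271 in PGC12M, 2191 in PGC13F and 1300.1 in PGC13M. The days overlapped fully, and the lowest and the highest library were the E12.5 pair. The log2 fold change of E13.5 against E12.5 was 0.26 (SE 0.72, adjusted p = 0.763), and it turned to -0.61 without PGC12F and to -0.48 without PGC13F. It was also below 0 when libraries were scaled to their mito-piRNA reads.

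tRNA-SerTGA held 488 rpm in PGC11F, 922 in PGC11M, 40.3 in PGC12F, 465 in PGC12M, 545 in PGC13F and 375 in PGC13M. PGC12F stood far below the rest, which held 375 to 922 rpm. The log2 fold change was -1.89 (SE 1.27, adjusted p = 0.656) for E12.5 against E11.5 and 1.57 (SE 1.36, adjusted p = 0.520) for E13.5 against E12.5. The second was 0.59 on mito-piRNA reads, 0.23 with TMM and 0.08 with DESeq2. Without PGC12F the pair were -0.67 and 0.10. Without PGC12M, which leaves PGC12F alone, they were -4.01 and 3.44, and the second was 0.20 without PGC13F and 2.96 without PGC13M. Its most frequent sequence, of 18 nt, was also the third of all 157 by reads.

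The reverse strand of the D-loop held 634 rpm in PGC11F, 214 in PGC11M, 65.0 in PGC12F, 213 in PGC12M, 45.5 in PGC13F and 140.3 in PGC13M. PGC11F stood apart, and the male libraries of E11.5 and E12.5 were almost equal. In each sex the E13.5 library was the lowest of the 3 days. Against E11.5 the log2 fold change was -1.96 (SE 1.26, adjusted p = 0.656) at E12.5 and -2.53 (SE 1.27, adjusted p = 0.992) at E13.5. Without PGC11M, which leaves PGC11F as the only E11.5 library and assumes that it varies like the others, edgeR called this 5′ end in both contrasts, with log2 fold changes of -3.26 (adjusted p = 0.038) and -3.82 (adjusted p = 0.0289). Without PGC11F instead, they were -0.03 (adjusted p = 0.992) and -0.59 (adjusted p = 0.999), so the size of both rested on PGC11F. E13.5 against E12.5 was -0.57 (SE 1.12, adjusted p = 0.707). It was -1.38 on mito-piRNA reads, -1.61 with TMM and -1.71 with DESeq2. Without PGC12F it was -1.19 and without PGC13M -1.55, while without PGC13F it was -0.0012 and without PGC12M 0.49.

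Of the 11 5′ ends listed in all libraries, both E13.5 libraries lay above both E12.5 libraries at 7, which are the 6 of the 16S rRNA and the start of the 12S rRNA. As a percent of mito-piRNA reads this held at 1 of the 11, the start of the 12S rRNA. In rpm, both E11.5 libraries lay above both E12.5 libraries at 3, and the E11.5 and E13.5 libraries did not overlap at 4. These orders were not tested, and with 2 libraries a day they can arise without a difference between days. The 16S rRNA 5′ ends at bases 1551, 1552, 1553, 1554 and 1564 lie at the same 3′ end, so they are not separate observations. The share of all 5′ ends that the model called in these contrasts, which is another measure, was 0%. Within females 4 of the 11 were lower at E12.5 than at E11.5, and within males 9 were. From E12.5 to E13.5, 9 of the 11 were higher in females and 7 in males.

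**Figure D2:**
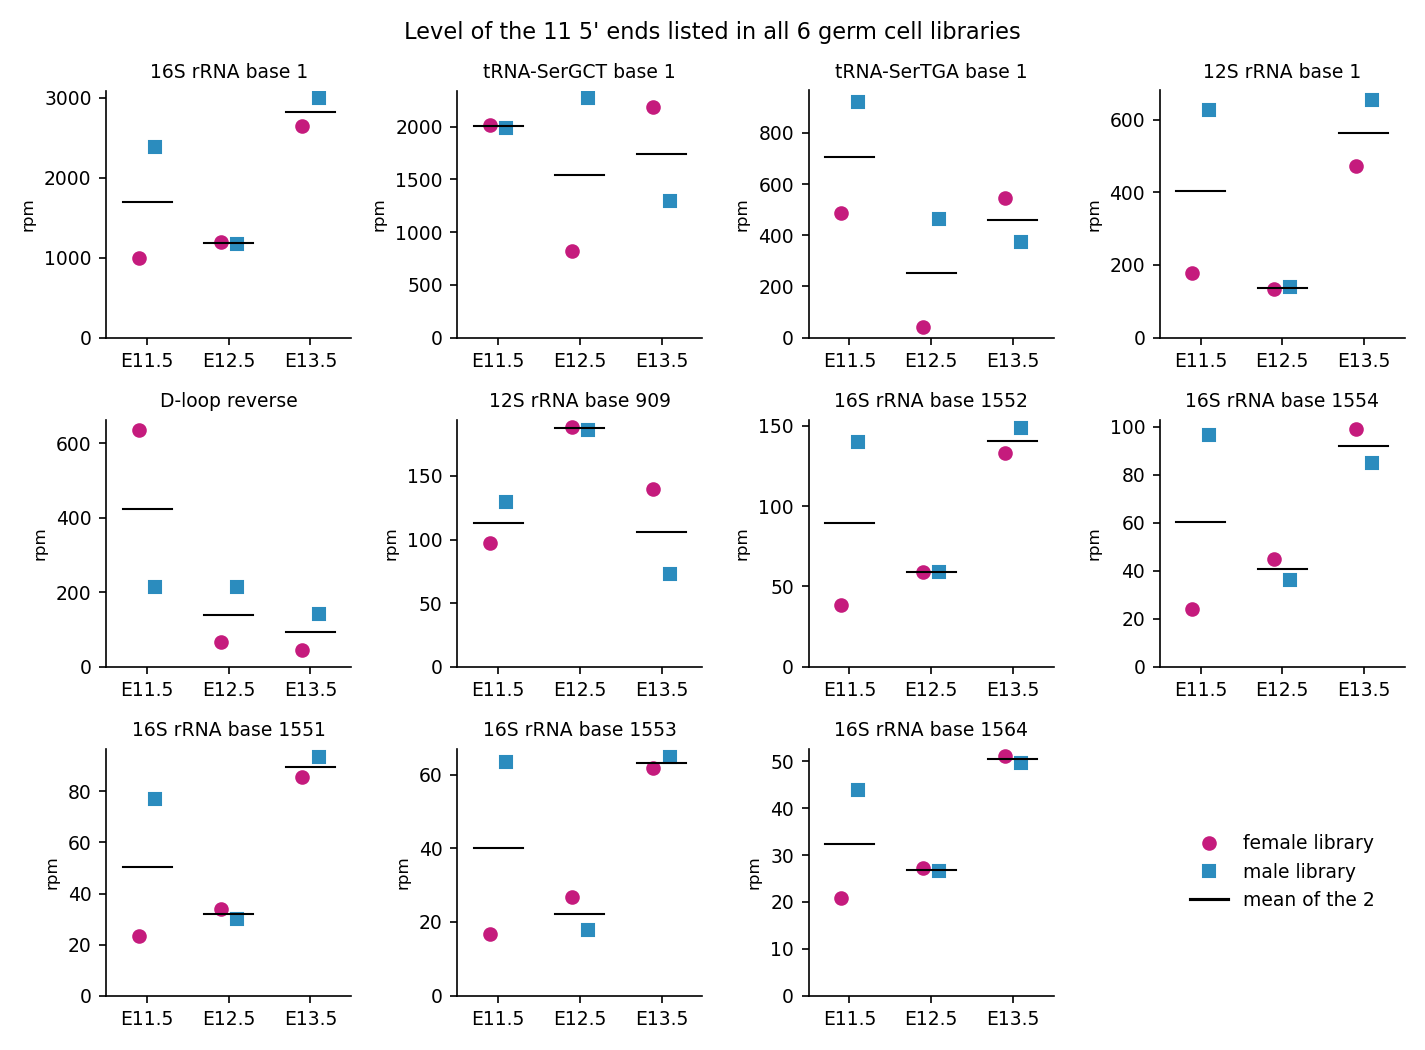
Level in rpm (vertical axis of each panel, starting at 0) of the 11 5′ ends listed in all 6 germ cell libraries, by day, with 1 point per library and a bar at the mean of the female and the male library. In rpm both E13.5 points lie above both E12.5 points at the 16S rRNA starts, which as a percent of mito-piRNA reads overlap, while tRNA-SerGCT spans 820.3 to 2271 rpm at E12.5 alone.

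**Figure D3:**
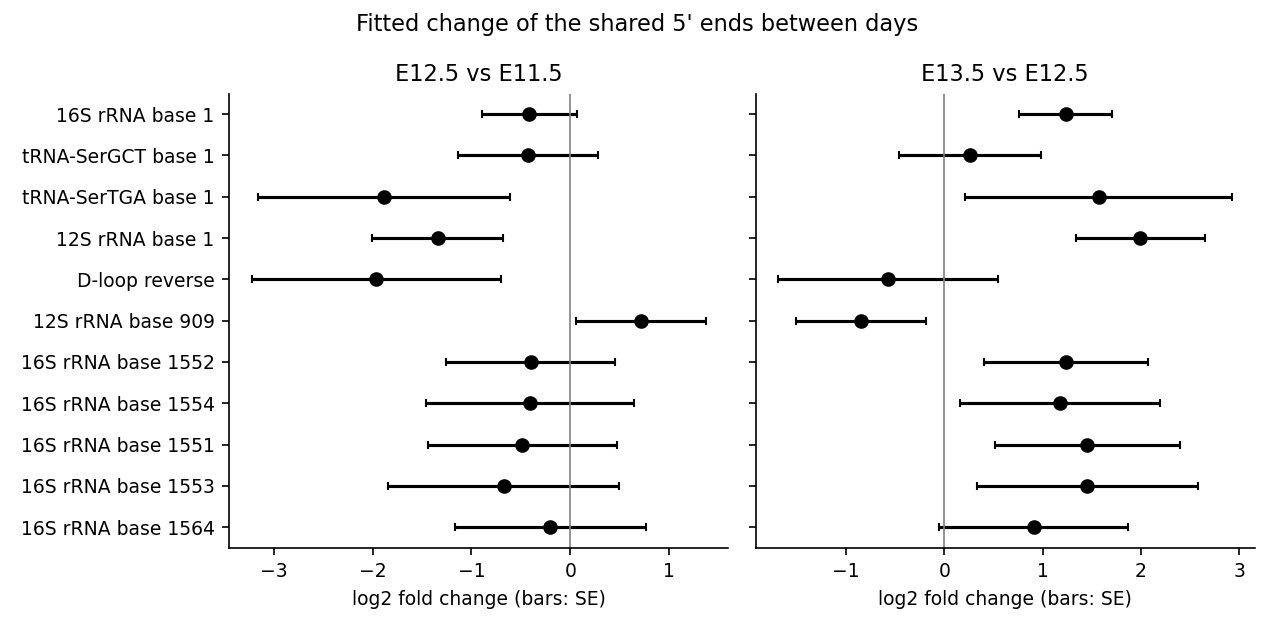
edgeR log2 fold changes between successive days (horizontal axis, bars are standard errors) for the same 11 5′ ends, with the vertical line at no change. From E12.5 to E13.5 the largest is 1.99 at the start of the 12S rRNA and none passed the test. Scaling to mito-piRNA reads shifts the median of these changes by -1.01 and turns base 1564 of the 16S rRNA and tRNA-SerGCT below 0.

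The number of starts listed inside the rRNA genes differed between libraries. In the 16S rRNA, away from its first base and its 3′ end, 25 5′ ends were listed in all. Of these, PGC11F listed 3, PGC11M 14, PGC12F 1, PGC12M 3, PGC13F 12 and PGC13M 19. In the 12S rRNA the numbers were 2, 11, 1, 1, 4 and 10 in the same order, out of 11. The 3 libraries with many such starts were also the 3 with the highest total level, and the part of the cut-off in this was not tested. An example near the cut-off is base 273 of the 12S rRNA, which had the lowest p of the 3 days together (adjusted p = 0.748). It held 20.3 rpm in PGC11F, 19.95 in PGC11M, 19.4 in PGC13F and 18.8 in PGC13M and was not listed at E12.5, where the lowest listed sequences held 16.9 and 17.8 rpm. At base 351 only PGC11M (67.3 rpm), PGC13F (37.8 rpm) and PGC13M (63.4 rpm) listed reads, and at base 505 the same libraries held 31.3, 39.1 and 49.1 rpm. At base 143 of the 16S rRNA only the PGC11M (55.1 rpm) and PGC13M (47.2 rpm) libraries listed reads. At bases 167 and 168 reads were listed only at E13.5, with 19.2 to 23.1 rpm, and at base 98 in PGC11M (40.1 rpm), PGC12M (19.1 rpm), PGC13F (44.9 rpm) and PGC13M (45.7 rpm).

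The features listed in fewer than 6 libraries were scarce. tRNA-LeuTAA (mt-Tl1, bases 2676 to 2750), which follows the 16S rRNA, was listed in the male libraries only, at 36.6 rpm in PGC11M, 176.7 in PGC12M and 63.2 in PGC13M. RNA antisense to tRNA-Ala was likewise listed in males only, at 43.2, 19.1 and 97.4 rpm, with its 5′ end at base 5017. These male-only lists were not tested as a difference between sexes. tRNA-Gln held 17.7 to 72.4 rpm in 5 libraries and was not listed in PGC12F. RNA antisense to tRNA-Pro held 17.3 to 36.9 rpm in 5 libraries and was not listed in PGC13M. tRNA-Glu held 19.5 rpm in PGC11M, 22.0 in PGC12M and 28.3 in PGC13F. Among genes of respiratory chain proteins, the start of ND3 (complex I) held 28.6 rpm in PGC11M, 49.4 in PGC13F and 41.8 in PGC13M, and no E12.5 library listed it. All 3 of its germ cell sequences carried the substitution T3C. ND3 antisense reads were listed in PGC11M (17.3 rpm) and the start of ATP8, an ATP synthase subunit, in PGC13M (17.5 rpm), each in that library alone.

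No share of reads passed a test between days. rRNA took 32.1% of mito-piRNA reads in PGC11F, 57.9% in PGC11M, 65.2% in PGC12F, 35.2% in PGC12M, 59.6% in PGC13F and 71.6% in PGC13M (exact permutation p = 0.4, adjusted p = 0.6). tRNA took 54.4%, 38.8%, 32.4%, 60.6%, 39.1% and 25.7% in the same order (exact permutation p = 0.6, adjusted p = 0.675). PGC11F and PGC12M were the libraries with more tRNA than rRNA reads. The D-loop took 13.54% in PGC11F and 0.631% to 4.2% in the other 5 (exact permutation p = 0.267, adjusted p = 0.6). The 95% Wilson intervals of such shares were at most 1.48 percentage points wide, and cover counting error only, since reads of amplified libraries are not independent molecules.

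MT sequences are those of the nuclear search made here, and the study's own MT read counts are lower in each of the 6 libraries. The share of reads from MT sequences was 20.8% and 28.8% at E11.5, 31.5% and 20.98% at E12.5, and 34.1% and 36.6% at E13.5. Both E13.5 libraries were above the other 4 (exact permutation p = 0.267, adjusted p = 0.6). The class can change with the 3′ end. At the 16S rRNA start the 23-nt form, not listed in PGC13F, is NUMT. The 24-nt form, with 2461 reads in PGC13F alone, is MT. The part of the 3′ ends of PGC13F in its MT share was not tested. Reads that start with A, the base of the 16S, 12S and tRNA-SerGCT starts, made up 72.6% and 75.4% at E11.5, 88.5% and 80.0% at E12.5, and 81.5% and 81.8% at E13.5. Both E11.5 libraries were the lowest (exact permutation p = 0.2, adjusted p = 0.6). Mismatched reads made up 2.35% to 7.69% of reads (exact permutation p = 0.6, adjusted p = 0.675). In the germ cells 7 of the 17 mismatched sequences, with 71.0% of the mismatched reads, had an exact nuclear match. Mean length was 22.9 to 24.0 nt over the 6 libraries (exact permutation p = 0.333, adjusted p = 0.6).

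PGC13F differed from the other libraries at the 3′ end of its sequences, so a comparison by whole sequence sets it apart at E13.5. In PGC13F 38.1% of reads ended in A and 6.84% in C. In the other 5 germ cell libraries 4.76% to 7.91% ended in A and 28.5% to 39.5% in C, and the 6 somatic libraries fell on the same side. The mtDNA base after the 3′ end was C for 51.4% of reads in PGC13F and A for 27.8%. In the other 5 it was C for 9.48% to 13.6% and A for 54.6% to 63.8%. The study's reads were trimmed of an adapter that begins with A at a minimum overlap of 1 base, and the part of trimming in the 3′ ends was not tested.

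**Figure D4:**
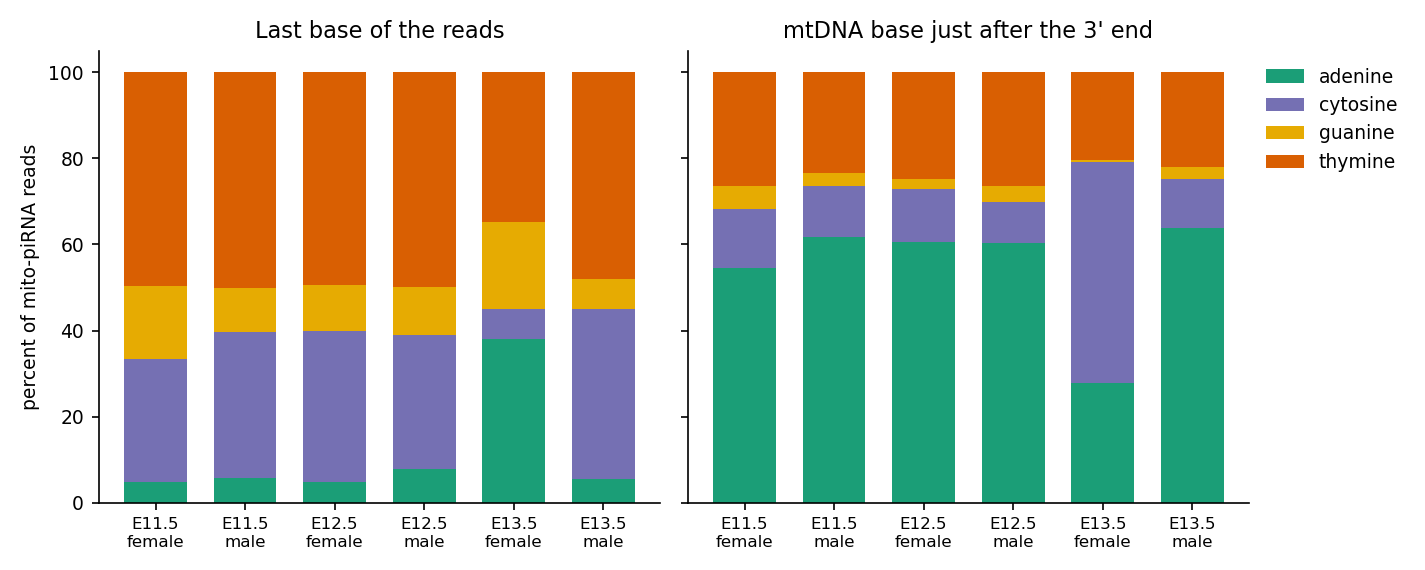
Percent of mito-piRNA reads (vertical axis) by their last base (left) and by the mtDNA base that follows their 3′ end (right) in the 6 germ cell libraries. The E13.5 female library has 38.1% of reads ending in adenine, against 4.76% to 7.91% in the other 5.

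PGC13F alone of all 12 libraries listed 30 sequences, with 36.6% of its reads, and 25 of them ended in A. For 27 of the 30 another germ cell library listed a sequence with the same 5′ end. The other 5 germ cell libraries all listed 11 sequences that PGC13F did not, with 152 to 3756 reads each, and all 11 shared their 5′ end with a sequence of PGC13F. At the 16S rRNA start the 23-nt sequence had 1689, 2725, 1652, 1374 and 3756 reads in the other 5 libraries and was not listed in PGC13F. The 24-nt sequence, 1 base longer, had 2461 reads in PGC13F and was listed nowhere else. At the tRNA-SerGCT start the 22-nt sequence, with 10535 reads in the other 5, was not listed in PGC13F, and the 17-nt one, with 2625 reads there, was listed in that library only. At the 12S rRNA start the 16-nt sequence had 1157 reads in PGC13F, 108 in PGC11M and 100 in PGC13M. The 34-nt sequence of the 16S rRNA start, in contrast, was listed in all 6, with 672, 1457, 638, 401, 1865 and 2323 reads in the order of days and female before male.

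**Figure D5:**
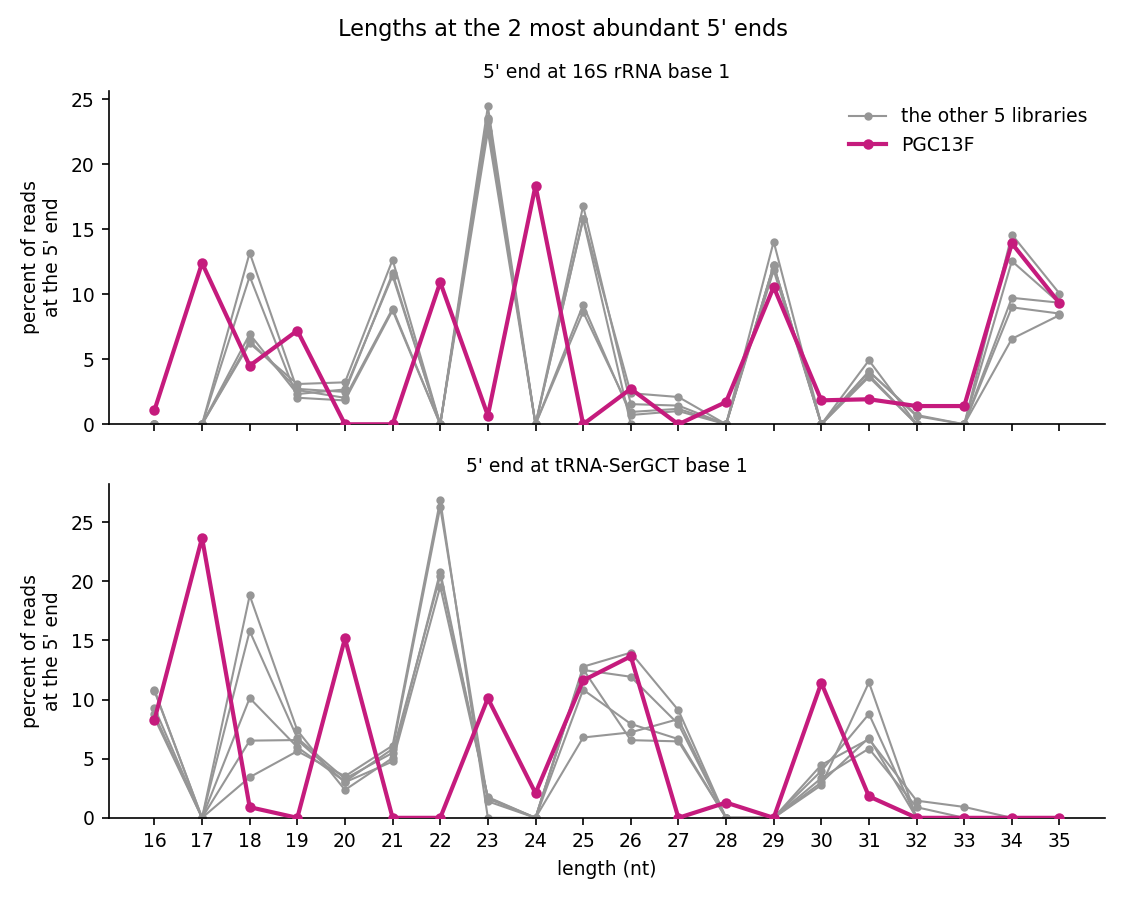
Percent of the reads of a 5′ end (vertical axis) by length in nt (horizontal axis) at the 16S rRNA start (top) and the tRNA-SerGCT start (bottom), with PGC13F as the thick line and the other 5 germ cell libraries as thin lines. A point at 0 is a length not listed. The peaks at 23 nt and 22 nt of the thin lines are missing in PGC13F, which peaks at 24 nt and 17 nt.

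The sequences and 5′ ends listed in all 6 libraries took like shares of the reads in PGC13F and elsewhere. The 22 such sequences held 49.5% of the reads of PGC13F and 44.8% to 50.0% in the other 5 libraries, and the 11 such 5′ ends held 89.9% and 82.8% to 97.3%. Mean length at the 16S rRNA start was 25.7 nt in PGC13F and 25.7 to 26.3 nt over the 6 libraries. At the 12S rRNA start PGC13F had the lowest mean length, 16.5 nt against 17.6 to 18.9 nt in the other 5. It was also the lowest at the starts of tRNA-SerGCT (22.17 nt, the next being 22.24 nt) and tRNA-SerTGA (18.50 nt, the next being 18.56 nt) and on the reverse strand of the D-loop (20.59 nt, the next being 20.86 nt). PGC13F was the highest at base 909 of the 12S rRNA (16.18 nt, the next being 16.17 nt) and base 1564 of the 16S rRNA (19.56 nt against 19.0 nt). Cutting each sequence back past any trailing A and C, a step added after seeing the data, gave 115 stems, and the 22 stems listed in all 6 libraries held 86.0% of the reads of PGC13F and 77.8% to 92.6% in the other 5. On these stems edgeR again called 0 of 77 over the days, with 0 at an unadjusted p under 0.05 (lowest adjusted p = 0.939). Between E13.5 and E12.5 it called 0 as well (lowest adjusted p = 0.730), with 3 at an unadjusted p under 0.05, which are 1 stem of the 12S rRNA start and 2 of the 16S rRNA start. When PGC13M was left out, PGC13F stood alone for E13.5 and was assumed to vary like the other days, so calls in that fit cannot be told apart from the 3′ ends of PGC13F given above and are no test of the day. edgeR then called 8 single sequences over the days, 10 for E13.5 against E12.5 and 9 for E13.5 against E11.5, all of them at the 16S rRNA, tRNA-SerGCT and 12S rRNA starts. Among them were the 23-nt, 22-nt and 18-nt sequences shown above, which PGC13F did not list. No 5′ end was called without PGC13M.

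The sequences with the lowest p over the days in the complete set were short forms of the 12S rRNA start (16 and 17 nt), the 32-nt form of the tRNA-SerGCT start, the 27-nt form of the ND3 start and the 34-nt form of the 16S rRNA start, each with an adjusted p = 0.872. The 34-nt form held 97.6 and 299.7 rpm at E11.5, 107.6 and 77.4 rpm at E12.5, and 368.7 and 436.9 rpm at E13.5. Both E13.5 libraries lay above the other 4. Its log2 fold change of E13.5 against E12.5 was 2.07 (SE 1.23).

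The course over the days was set beside that of the somatic cells of the same gonads. There the total level was 5023 and 5762 rpm at E11.5, 3163 and 5009 rpm at E12.5, and 8235 and 13129 rpm at E13.5, so the lowest library was again the female one of E12.5. The reverse strand of the D-loop held 289 to 662 rpm in the somatic libraries, and 662 and 596 rpm at E13.5, against 45.5 and 140.3 rpm in the germ cells. In a test of the interaction of cell type and day edgeR called 0 of 41 5′ ends (0%), with 0 at an unadjusted p under 0.05, and DESeq2 called 0. With the PGC and SC libraries of a sex and day as a block, edgeR also called 0, with 0 at an unadjusted p under 0.05. For the D-loop the somatic level over the germ cell level was 0.915 in females and 1.35 in males at E11.5, 6.37 and 2.87 at E12.5, and 14.6 and 4.25 at E13.5. This ratio was higher on each later day in both sexes, while the interaction at this 5′ end had an unadjusted p = 0.161 (adjusted p = 1.0) in edgeR and 0.150 (adjusted p = 1.0) with the block.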

How the data were processed

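The deposited files give, for each library, the mito-piRNA sequences and their raw read counts. As the authors describe, reads were trimmed with Trim Galore, sequences under 10 CPM were dropped, and the rest were aligned with Bowtie to mm39 and to sequences bound by PIWI proteins. Lists of this kind hold part of a library, so counts were scaled to the library totals that the study states for small RNAs above the cut-off. 1 read was worth 0.145 to 0.206 rpm, and the lists held 16061 to 38396 reads per germ cell library, with lowest listed counts of 83 to 109 reads (15.8 to 17.8 rpm).

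Each sequence was placed on the GRCm39 mtDNA with at most 1 mismatch and annotated with GENCODE, and searched in the nuclear chromosomes. Counts were summed by sequence, 5′ end and feature, with 0 for what was not listed. Units listed in at least 2 PGC libraries (for the interaction, in at least 3 of the 12 PGC and SC libraries) were tested with edgeR 4.0.16 (day and sex as terms, quasi-likelihood, Benjamini-Hochberg, threshold 0.05) and with DESeq2 1.42.0. Single values were tested by permuting the days over all 90 splits (exact, two-sided), with Python 3.11.15. The fitting script was tested on simulated data with a dispersion of 0.05 and no cut-off, against a common dispersion of 2.32 for the 5′ ends here. That checks the script and not what the fit could find in these data.

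The text names every feature with reads, the 5′ ends listed in all 6 libraries, the 5 sequences with most reads, and the 5 called units with the largest change in each test or, with fewer calls, the 5 with the lowest p. The members and lists were chosen with earlier results of these data known. The labels call the libraries of a day separate samples of opposite sex from pooled gonads. The edgeR p-values rest on the spread left after day and sex, which holds any day difference that differs between the sexes. The permutation tests have no sex term, so their spread within a day holds the sex difference. With days permuted within each sex (36 splits), p was at least 0.333 for each of the 9 measures, where the smallest possible is 0.167. Alternatives covered scaling, filters, a cut-off of 25 rpm, exact matches, a fit without sex and leaving out each library.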

Additional observations from a re-analysis of the deposited data

Results flagged for a closer look

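Of 23 values examined over the 6 germ cell libraries, 5 had a library far from the other 5, with a gap to its nearest neighbour above Dixon's 95% critical share of the whole range. Chance alone does so in about 1 of 20 groups, and several of these values are shares of the same reads. That PGC13F has unlike 3′ ends was known before these values were examined. The flags therefore describe the libraries and are no test. PGC13F had the lowest share of reads ending in C (6.84%), the highest share ending in A (38.1%) and the lowest share ending in T (34.9%). PGC11F had the highest share of D-loop reads (13.54%) and the highest level of the D-loop reverse 5′ end (634 rpm), which rest on the same reads.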

How the results depend on the processing

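Of 396 recomputed values, 377 kept their direction and their side of the threshold. The counts of called 5′ ends and features stayed at 0 under every alternative run, except that leaving out libraries gave 0 to 1 for E12.5 against E11.5 and for E13.5 against E11.5 (1 without PGC11M), and for single sequences over the 3 days 0 to 8 (8 without PGC13M, with 10 for E13.5 against E12.5 and 9 for E13.5 against E11.5, where PGC13F stands alone and the day is not tested). Counting each sequence once turned the E13.5 minus E12.5 difference of mean length to -0.20 nt and that of the mismatched share to 2.57 percentage points, and exact mtDNA matches turned mean length to -0.15 nt. Over the leave-outs mean length ran from -0.35 to 0.59 nt, the share ending in C from -26.3 to 6.43 (above 0 without PGC13F) and the share starting with A from -6.90 to 1.62 percentage points. Scaling to mito-piRNA reads, TMM and DESeq2 moved the median log2 change of E13.5 against E12.5 over the 11 shared 5′ ends by -1.01, -1.06 and -1.14. They turned tRNA-SerGCT to -0.71, -0.94 and -1.07 and base 1564 of the 16S rRNA to -0.10, -0.16 and -0.24. Over the leave-outs tRNA-SerGCT ran from -0.61 to 1.25 and the D-loop from -1.55 to 0.49. The fit without sex as a term called no 5′ end either. No paired analysis was possible because the labels give no replicate number that pairs libraries beyond sex, which the main fit holds. That concerns the days, and for the interaction the block of PGC and SC libraries of a sex and day changed no call. Depth and the authors' cut-off limit the scarce features, and 2 libraries a day limit every test.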

Other observations

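Of the 157 sequences, 49 were listed on all 3 days. A further 37 were listed at E11.5 and E13.5 and in neither E12.5 library. Of these, PGC11M listed 36 and PGC13M 35, while PGC11F listed 5 and PGC13F 7, and none was in both libraries of both days. Their highest level in any library was 229 rpm. A single day alone listed 15 sequences at E11.5, 4 at E12.5 and 44 at E13.5, and of these 1, 0 and 1 were in both libraries of the day.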
